A study of Mus musculus with 12 samples.

Results

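The regions described here are 3153 places of open chromatin in mouse bone marrow cells that were called as peaks in all 9 libraries of MLL-AF9 leukaemia, MLL-ENL leukaemia and normal marrow, and in none of the 3 libraries of BRD9-NUTM1 leukaemia. They were found by merging the peaks of chromosomes 1 to 19 in 12 peak lists wherever these shared at least 1 bp, which gave 43905 regions. The members made up 7.18% of those regions and 44.9% of the 7016 regions called in all 9 libraries outside BRD9-NUTM1. The members were chosen by the peak calls of all 12 libraries, so their absence from the BRD9-NUTM1 lists is given as a description without a test.

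ATAC-seq had been run on CD45.2+ cells from the bone marrow of mice (strain C57BL/6), sorted by FACS at 150000 cells per sample, with 3 libraries in each of 4 groups. The BN1 group carried BRD9-NUTM1, the MA9 group MLL-AF9 and the ME group MLL-ENL, and the Control group was CD45.2+ without a fusion. No other allele and no treatment was given for any group. The age of the mice, the host, the way in which each fusion was introduced and whether the 3 libraries of a group came from separate animals are not given in the sources used here, so the p-values measure only the spread between these libraries, which may be technical. The gene of the sorting marker, Ptprc, which encodes CD45, had 0 peaks within 10 kb in each BN1 library, against 3 in each MA9 library, 1 in each ME library and 4 in each Control library.

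ATAC-seq uses a transposase to cut and tag DNA where nucleosomes leave it accessible, chiefly at promoters and enhancers. BRD9 is a bromodomain subunit of a BAF nucleosome remodelling complex, and NUTM1 is a testis protein that binds the acetyltransferase p300. The fusion BRD9-NUTM1 occurs in infant acute lymphoblastic leukaemia. AF9 and ENL read acylated histones and belong to the transcription elongation machinery, and their fusions to MLL hold genes such as Hoxa9 active in acute leukaemia.

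The 4 groups had peak lists of very different length, and this sets what a missing call can show. BN1 lists held 3011 to 4258 peaks on these chromosomes, MA9 lists 31968 to 33588, ME lists 8546 to 9663 and Control lists 25541 to 28023. When each list was reduced to its 3011 strongest peaks, 62 regions met the same rule and 26 of them overlapped a member. In those shorter lists 1567 regions were called in the 9 libraries and 1341 in all 12. A missing call in BN1 shows only that no peak passed the caller's limit in that library, and the files hold no value for BN1 at these places.

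Promoter sequences are shown first for the members with the strongest signal, and then for members with large rank shifts in either leukaemia. The 250 bases before the annotated start are given 5′ to 3′ on the gene's strand, from RefSeq build GRCm38.p6. Capitals mark CCAAT boxes (CCAAT), TATA boxes (TATAAA), octamers (ATTTGCAT) and GC boxes (GGGCGG) on either strand, and overlapping GC boxes run together. The histone genes H2bc7 (chr13:23574208-23574457, minus strand), H2bc12 (chr13:22035571-22035820, plus strand), H2ac13 (chr13:21716162-21716411, plus strand) and H1f3 (chr13:23554782-23555031, plus strand) had the 4 strongest members.
H2bc7: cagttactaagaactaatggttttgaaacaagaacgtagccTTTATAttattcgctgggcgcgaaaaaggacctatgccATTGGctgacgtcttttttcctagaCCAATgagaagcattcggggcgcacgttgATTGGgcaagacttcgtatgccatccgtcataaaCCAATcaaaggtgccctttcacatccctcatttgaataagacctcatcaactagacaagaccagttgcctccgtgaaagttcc
H2bc12: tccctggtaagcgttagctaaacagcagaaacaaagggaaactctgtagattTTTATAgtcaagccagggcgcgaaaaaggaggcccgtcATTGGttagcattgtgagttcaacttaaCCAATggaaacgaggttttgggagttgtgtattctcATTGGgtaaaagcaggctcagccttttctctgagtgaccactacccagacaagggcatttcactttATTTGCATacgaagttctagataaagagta
H2ac13: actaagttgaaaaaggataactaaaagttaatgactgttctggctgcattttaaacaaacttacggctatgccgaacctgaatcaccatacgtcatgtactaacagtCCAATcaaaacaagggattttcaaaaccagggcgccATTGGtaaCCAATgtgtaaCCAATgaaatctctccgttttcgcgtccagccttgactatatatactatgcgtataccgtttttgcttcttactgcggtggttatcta
H1f3: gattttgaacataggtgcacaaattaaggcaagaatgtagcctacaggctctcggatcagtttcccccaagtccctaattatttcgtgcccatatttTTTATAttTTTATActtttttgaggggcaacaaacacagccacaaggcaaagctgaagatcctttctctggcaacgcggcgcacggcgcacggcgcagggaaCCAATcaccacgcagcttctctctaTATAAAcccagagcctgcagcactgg
These 4 promoters held 4, 3, 4 and 1 CCAAT boxes in that order and between 39.6% and 47.6% GC. H2bc12 also held 1 octamer, the element bound by OCT1 at many histone H2B promoters.

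The next promoters overlap members whose rank differed most from Control. Hipk3 (chr2:104494490-104494739, minus strand) stood high in MA9, C5ar1 (chr7:16259339-16259588, minus strand) low in MA9, Gpr160 (chr3:30855700-30855949, plus strand) high in ME and Coro1a (chr7:126704221-126704470, minus strand) low in ME.
Hipk3: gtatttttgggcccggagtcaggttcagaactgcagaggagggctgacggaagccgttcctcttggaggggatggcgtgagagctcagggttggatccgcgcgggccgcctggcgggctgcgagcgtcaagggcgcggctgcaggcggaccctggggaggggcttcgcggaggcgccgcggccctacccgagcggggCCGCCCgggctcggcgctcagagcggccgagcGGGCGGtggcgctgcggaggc
C5ar1: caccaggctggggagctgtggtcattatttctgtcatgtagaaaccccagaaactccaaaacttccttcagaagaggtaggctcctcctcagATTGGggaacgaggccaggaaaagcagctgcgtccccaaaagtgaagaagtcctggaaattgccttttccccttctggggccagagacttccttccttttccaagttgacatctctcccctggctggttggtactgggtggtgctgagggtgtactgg
Gpr160: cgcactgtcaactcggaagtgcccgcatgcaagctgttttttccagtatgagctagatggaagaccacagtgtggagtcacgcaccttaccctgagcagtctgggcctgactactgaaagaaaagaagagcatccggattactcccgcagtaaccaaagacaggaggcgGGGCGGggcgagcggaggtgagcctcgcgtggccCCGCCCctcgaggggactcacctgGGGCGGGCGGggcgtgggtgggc
Coro1a: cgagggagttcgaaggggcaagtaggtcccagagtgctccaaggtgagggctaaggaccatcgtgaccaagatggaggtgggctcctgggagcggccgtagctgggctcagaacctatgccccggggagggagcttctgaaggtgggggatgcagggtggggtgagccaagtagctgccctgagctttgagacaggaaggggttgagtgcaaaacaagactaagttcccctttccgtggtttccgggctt
Hipk3 held 2 GC boxes in 74.0% GC and Gpr160 held 4 in 62.4% GC. C5ar1 held 1 CCAAT box in 52.8% GC, and Coro1a held 0 of these 4 motifs in 60.0% GC.

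The members lay mostly at genes, but with less signal than the regions called in all 12 libraries. Of the 3153 members, 2069 (65.6%, Wilson 95% interval 63.9% to 67.3%) lay within 1 kb of an end of a protein-coding gene, against 72.2% of the 2407 regions called in all 12 libraries and 26.1% of all 43905 regions. A further 630 members lay deeper inside gene bodies and 454 (14.4%) lay outside them. The members had 2903 different nearest genes, and 279 of these (9.61%) were also nearest to a region called in all 12. The nearest BN1 peak was a median of 80.6 kb away, and 368 members (11.7%) had one within 10 kb.

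Members were also narrower and weaker. Their median width was 816 bp, against 1226 bp for regions called in all 12, and 46 members (1.46%) reached 2 kb, against 9.64%. Peak signal has no common scale between these libraries, so each region was ranked within each library among the 7016 shared regions and given a percentile, from the weakest at 0 to the strongest at 100. By library the median percentile of the members was 26.5 to 27.3 in MA9, 25.1 to 25.5 in ME and 29.1 to 29.5 in Control, whereas that of regions called in all 12 was 77.4 to 80.3.

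The share of members fell with each decile of mean percentile over the 9 libraries. In the weakest decile 651 regions (92.9%) were members, in the fifth 399 (56.8%) and in the strongest 6 (0.855%), while the share called in all 12 was 1.14%, 13% and 94.6% in the same deciles. Around the limit of the rule, 904 regions were called in the 9 libraries and in 1 BN1 library, most often BN1 replicate 1 (720 regions), with a median mean percentile of 51.6, against 28.3 for the members. Another 552 were called in 2 BN1 libraries, with a median of 56.5. On the other side, 751 regions with no BN1 call missed 1 of the 9 libraries, and in 697 of them that library was an ME one, 537 times ME replicate 3. Within ME lists the members were a large part, 34.8% to 38.8% of all peaks, against 9.85% to 10.5% in MA9 lists and 12.3% to 13.4% in Control lists.

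**Figure D1:**
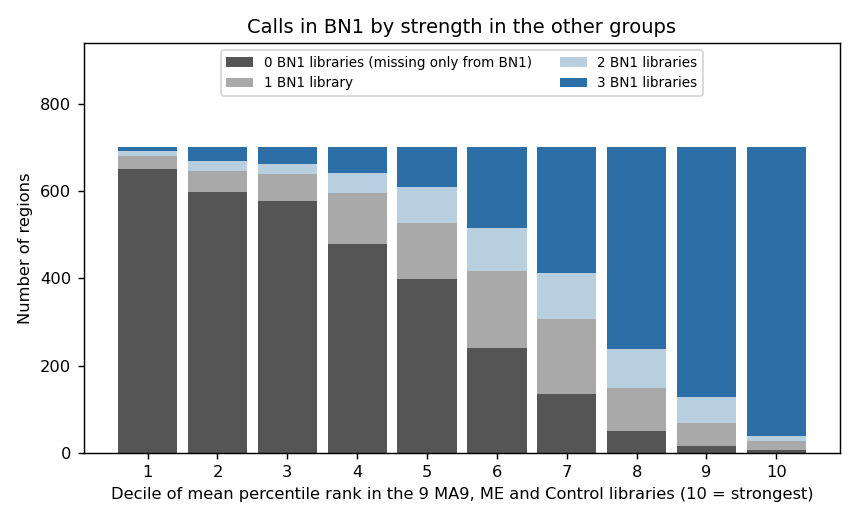
Number of regions (vertical axis) among the 7016 called in all 9 MA9, ME and Control libraries, by decile of mean percentile rank in those libraries (horizontal axis, 10 strongest), with each bar split by how many BN1 libraries had a call. The members, with 0 BN1 calls, numbered 651 in the weakest decile and 6 in the strongest.

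Regions were merged by overlap, so the closeness of their peaks in the 3 groups that held the members was partly set by the rule. The point of highest signal lay a median of 5 bp apart between MA9 and ME, 12 bp between MA9 and Control and 13 bp between ME and Control. In regions called in all 12 these were 2, 13 and 16 bp. The points lay over 200 bp apart in 2.63%, 6.15% and 6.66% of members, in the same order. The median range within a group was 12 to 17 bp. By library, the median width of member peaks was 610 to 678 bp in MA9, 272 to 281 bp in ME and 451 to 487 bp in Control. In 2514 members every one of the 9 libraries had a single peak. Members at gene ends were stronger than the rest, with a median mean percentile of 31.5 against 22.6 for those over 1 kb away.

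Promoters in members were rich in GC and CpG, like those in regions called in all 12 libraries. The RefSeq table gave 2209 promoters of 300 bases, 250 before and 50 after the start, that overlapped a member (1960 genes), 2099 that overlapped a region called in all 12, and 20085 in all. Median GC was 62.3% in members, against 64.3% in regions called in all 12 and 57.0% in all promoters, and the median number of CpGs was 24, against 25 and 14. CCAAT boxes stood in 39.2% of member promoters, against 50.5% and 38.1%, and GC boxes, bound by SP1 and KLF factors, in 71.6%, against 78.8% and 47.0%. The ETS motif CCGGAAGT, bound by GABPA, stood in 11.6% of member promoters, against 8.48% and 5.28%. The NRF1 motif, a palindrome, stood in 3.89%, against 2.38% and 1.34%, and the cAMP response element TGACGTCA in 3.67%, against 4.43% and 2.30%. The TATA box stood in 4.3%, against 4.62% and 12.7%, and the PU.1 type ETS motif GAGGAAGT in 2.54%, against 3.48% and 3.18%. All motifs were searched as exact letters on both strands, and these shares describe the sets without a test.

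Histone genes supplied the strongest members. Replication-dependent histone genes are transcribed in S phase and are clustered, in the mouse mainly on chromosome 13. They were nearest to 19 members, 18 of them on chromosome 13, and to 5 of the 6 members in the strongest decile. Of 30 histone gene regions called in the 9 libraries, 19 were members, against 44.9% of all 7016 regions. Of the same 30, 5 were called in all 12, against 34.3%. The strongest member of all spanned chromosome 13, 23570624 to 23576950, over the H2B gene H2bc7, at percentiles of 97.2, 96.7 and 97.1 in MA9, 93.7, 93.7 and 93.0 in ME, and 99.9, 99.8 and 99.9 in Control. Control stood highest and ME lowest, all 9 values lay near the top of the scale, and the nearest BN1 peak was 7.95 kb away.

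The other histone members of this rank were H2bc12 (22034800 to 22036965), H2ac13 (21714804 to 21719125), the linker histone gene H1f3 (23554882 to 23556728) and H3c3 (23744404 to 23747736). The H2bc12 region stood at 96.1, 96.1 and 95.1 in MA9, 95.6, 95.7 and 94.8 in ME and 97.5, 96.9 and 96.8 in Control. Histone copies are near-identical, and how reads that map to several copies were handled is not given in the sources used here, so the split of signal between copies is uncertain. Outside the histones, the strongest member covered Rdm1 on chromosome 11 (101626710 to 101628402), at 94.3, 94.9 and 94.8 in MA9, 92.3, 90.3 and 89.4 in ME and 89.5, 88.7 and 90.6 in Control. The other members among the 15 strongest lay nearest to H2bc14, Tmco3, Pecr (a peroxisomal fatty acid enzyme), Gabpb2 (a subunit of the ETS factor GABP), Parp16, Cln8, Kif2c (a mitotic kinesin), Asb1 and Gtf3c6 (a subunit of the RNA polymerase III factor TFIIIC).

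**Figure D2:**
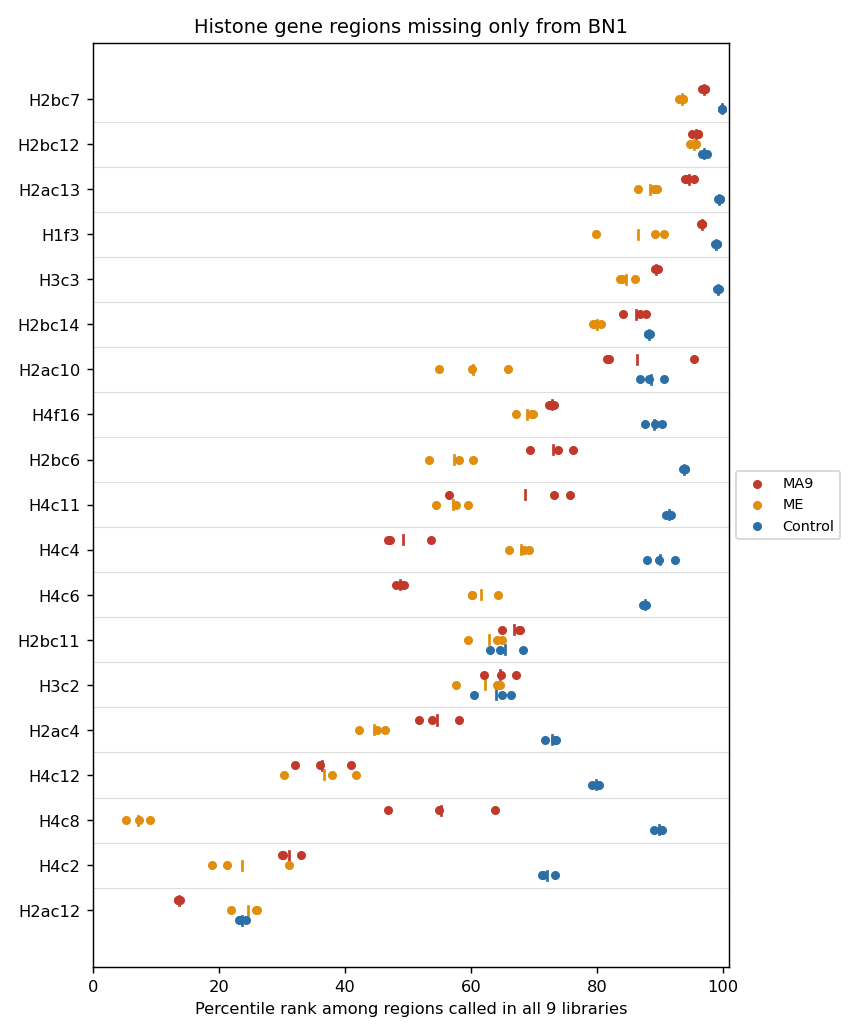
Percentile rank of peak signal (horizontal axis) of the 19 members nearest to a histone gene (rows), with a point for each MA9, ME and Control library and a tick at each group mean. The members named H4c8, H2bc11, H2ac12 and H2bc6 lay 12.6, 6.80, 6.09 and 1.25 kb from the end of that gene. Control stood highest at most of these genes by signal. The median MA9 shift was -10.1 percentile points by signal and -24.5 points by height, but +11.7 points when signal per peak width was ranked.

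MA9 was compared with Control, and ME with Control, to ask how the shared regions differed in strength between each MLL leukaemia and normal marrow, with MA9 against ME for the 2 leukaemias. The test was limma on the percentiles of all 7016 regions, with Benjamini-Hochberg adjustment over them and a call at an adjusted p under 0.05. Both comparisons with Control share its 3 libraries. A shift is a change of rank in percentile points, not of accessibility, and in a bulk sample fewer cells with an open region and less opening per cell cannot be told apart. The deposited signal grows with peak width, so the rank was also taken from the peak's −log10 p, its height, and from the signal per base of width. Regions called in the same direction by all 3 rankings are named as such below, a rule added after the values had been seen, and list members beyond the strongest pair of each list were also picked after that.

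In MA9, members at Hoxa9, Gpr160, Hipk3 and Ube2k stood far above Control, while those at C5ar1 and Tnfaip2 stood far below it by signal. Of the 3153 members, 890 (28.2%) were called higher in MA9, where 34.1% of all 7016 regions were, and 1287 (40.8%) were called lower, where 38.7% were. The median shift was -3.47 points in the members and -0.665 points in all 7016 regions. By all 3 rankings 278 members (8.82%) were higher, against 11.7% of all regions, and 419 (13.3%) were lower, against 10.6%.

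The largest rise in MA9 lay over the start of Hipk3, a homeodomain-interacting protein kinase, on chromosome 2 (104492948 to 104494758). Its percentiles were 90.6, 89.4 and 89.3 in MA9, against 1.5, 1.58 and 0.884 in Control, a shift of +88.4 points (SE 3.80, limma adjusted p = 8.96e-08). The 2 groups lay at opposite ends of the scale, and the rise was also called from height (+27.2) and from signal per width (+28.8). The region 0.366 kb from Hoxa9 (chromosome 6, 52221166 to 52222731) stood at 89.4, 88.5 and 86.1 in MA9, against 3.68, 0.570 and 0.627 in Control, a shift of +86.4 points (SE 5.32, limma adjusted p = 7.7e-07). It was called higher by all 3 rankings, and it is the only member within 10 kb of Hoxa3, Hoxa7, Hoxa9 or Hoxa10. Ube2k, a ubiquitin-conjugating enzyme gene, reached 88.5, 84.4 and 87.8 in MA9, against 6.26, 7.57 and 9.01 in Control, and was also called by all 3.

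Another 3 large rises in MA9 by signal did not pass per base of width. Tsc22d2 stood at 99.2, 98.8 and 99.0 in MA9, against 13.6, 11 and 20.3 in Control (+84.1 points, SE 3.96). The regions nearest to Erbin, a membrane scaffold gene, and to Bicral shifted by +80.9 and +79.9 points. Bicral encodes a subunit of the BAF complex that contains BRD9, but its region lay over 10 kb from either end of the gene. That region is therefore not counted with the BAF genes below. Per base of width these 3 shifts were +8.35, +4.62 and +0.779 points and none passed the test. Their −log10 p shifted by +42.7, +13.4 and +8.56 points.

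The deepest fall in MA9 lay at C5ar1, the receptor for complement C5a on myeloid cells, on chromosome 7 (16257268 to 16259416). Its percentiles were 3.38, 3.58 and 3.68 in MA9, against 90.4, 93.9 and 91.9 in Control, a shift of -88.5 points (SE 2.02, limma adjusted p = 5.18e-09). The MA9 peaks were 320, 516 and 314 bp wide, against 1764, 2149 and 1822 bp in Control, and the shift was -53.1 points by height and +17.5 points per width. Tnfaip2, a gene induced by TNF, stood at 14.5, 14.9 and 15.1 in MA9, against 92.1, 93.1 and 92.2 in Control (-77.6 points, and +2.28 per width). Wasf2, of the WAVE actin complex, Atp6v0a1, a proton pump subunit, Chst3 and Bcl3 had falls of -75.1, -74.8, -73.8 and -69.8 points. All 6 were also lower by height, but per width the last 4 shifted by +33.2, +24.8, +54.4 and +8.63 points, of which the first 3 passed.

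Other falls and rises in MA9 had the same direction by every ranking. E2f2, a transcription factor gene of the cell cycle, had its member at 27.9, 37.4 and 30.1 in MA9, against 98.7, 98.9 and 98.8 in Control, a shift of -67.0 points (SE 5.05, limma adjusted p = 2.7e-06). Kif11, a mitotic spindle motor gene, stood at 32.4, 33.7 and 23.0 in MA9, against 86.3, 87.8 and 91.0 in Control. The region 120 kb from Cxcr4, the receptor that keeps blood cells in the marrow, stood at 17.3, 28.9 and 12.7 in MA9, against 74.3, 79.0 and 77.2 in Control. All 3 were called lower by all 3 rankings, as were members nearest to Mef2d (-48.9 points) and, 57.3 kb away, Mef2c (-42.8 points). Rises called by all 3 rankings included Nfil3 (77.1, 76.1 and 74.8 in MA9, against 16.5, 7.27 and 9.38 in Control) and the cell cycle gene Tfdp1, a partner of E2F factors (+48.8 points).

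In ME, the strongest rises lay at Gpr160 and near Atrnl1, Phactr4 and Micu2, and the deepest falls at Coro1a, Osm and Tnfaip2. Of the 3153 members, 909 (28.8%) were called higher in ME, where 40.2% of all 7016 regions were, and 1319 (41.8%) were called lower, where 34.9% were. The median shift was -3.34 points in the members and +1.17 points in all regions. Higher calls were 40.8% of the members' calls, or 52.0% when the members were ranked among themselves. By all 3 rankings 234 members (7.42%) were higher, against 12.6% of all regions, and 565 (17.9%) were lower, against 12.1%.

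Gpr160, an orphan receptor gene on chromosome 3 (30855575 to 30856664), stood at 85.3, 83.7 and 86.9 in ME, against 6.16, 6.30 and 3.99 in Control, a shift of +79.8 points (SE 1.97, limma adjusted p = 4.55e-09). In MA9 it stood at 79.3, 78.1 and 81.6, a shift of +74.2 points from Control. The region 139 kb from Atrnl1 shifted by +74.8 points in ME and the one over Phactr4, a regulator of phosphatase and actin, by +67.3 points. The region near Micu2, a gene of mitochondrial calcium uptake, shifted by +66.9 points. These 4 were called higher by all 3 rankings in ME and, in their own comparison, in MA9. Itpripl2 and Man2a1 completed the 6 largest rises, at +66.6 and +64.7 points, and did not pass per width (+13.2 and +8.78 points).

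Coro1a, an actin-binding protein of leukocytes, had the deepest fall in ME (chromosome 7, 126702192 to 126705482). Its percentiles were 3.56, 1.24 and 0.399 in ME, against 99.7 in each of the 3 Control libraries, a shift of -98.0 points (SE 3.12, limma adjusted p = 1.37e-08). In MA9 they were 56.6, 44.6 and 46.7, between the other groups and apart from both. ME was lower than Control by all 3 rankings, whereas the MA9 shift of -50.4 points was not called per width (-10.2 points).

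The cytokine gene Osm, encoding oncostatin M, stood at 7.48, 2.61 and 1.97 in ME, against 96.2, 96.8 and 97.5 in Control (-92.8 points), and Tnfaip2 at 1.24, 1.40 and 1.61 in ME (-91.1 points). Both were lower by all 3 rankings in ME, and so was the region 11.7 kb from Pxn, which encodes the adhesion protein paxillin, at 5.64, 0.884 and 3.69 in ME, against 91.3, 92.6 and 91.5 in Control. Orai2, a calcium channel gene, and C5ar1 shifted by -89.1 and -89.0 points in ME by signal, and by +2.92 and -13.7 points per width, which did not pass.

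**Figure D3:**
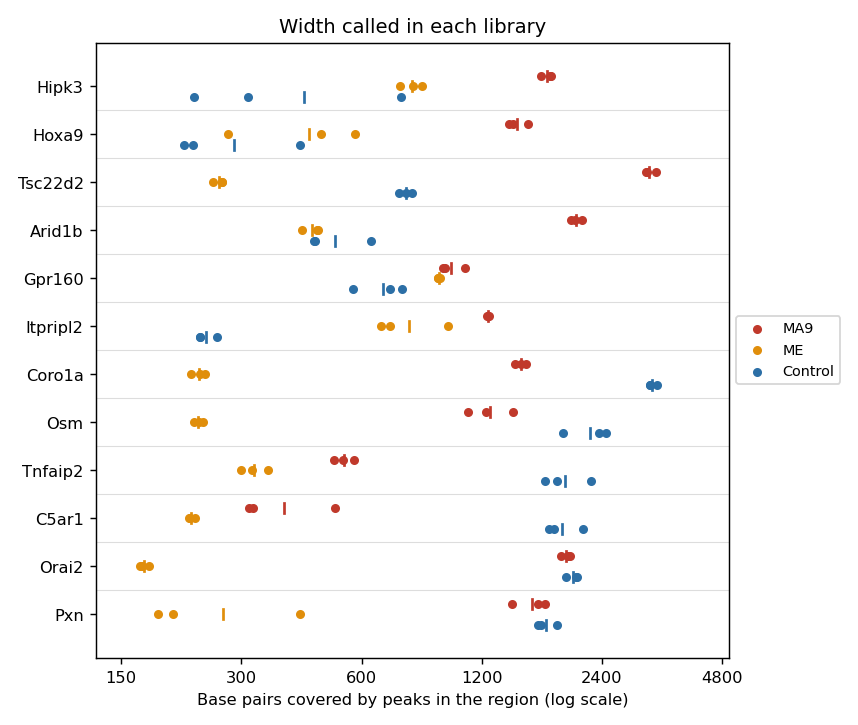
Base pairs covered by peaks (horizontal axis, log scale) in 12 named members, with a point for each MA9, ME and Control library and a tick at each group mean. At Coro1a the peaks covered 225 to 243 bp in ME and 3161 to 3291 bp in Control, and at Hipk3 they covered 1687 to 1787 bp in MA9 and 228 to 755 bp in Control.

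**Figure D4:**
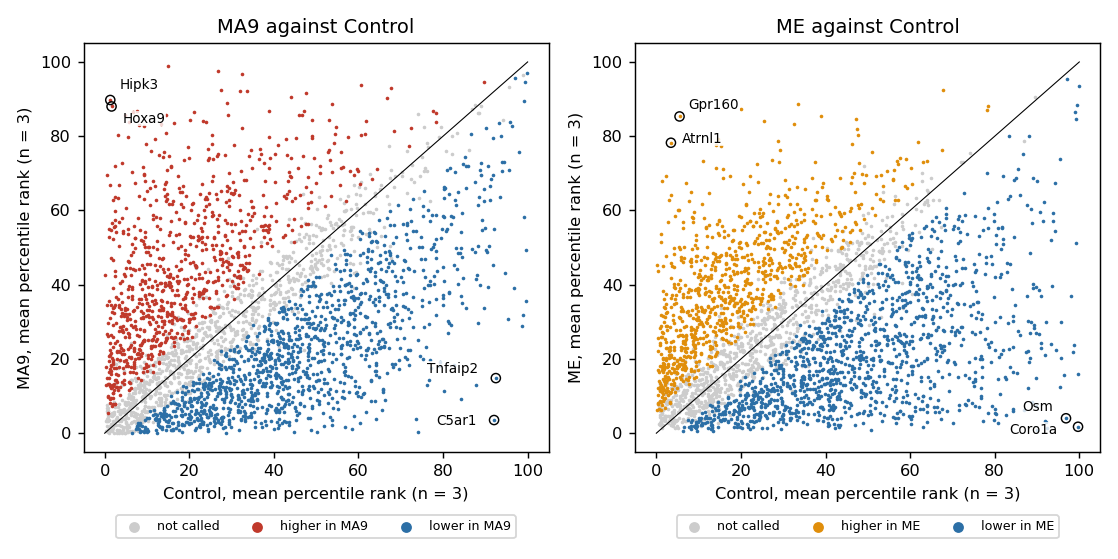
Mean percentile rank of each of the 3153 members in MA9 (left panel) and in ME (right panel) on the vertical axis, against that in the same 3 Control libraries on the horizontal axis, each a mean of 3 libraries, coloured by the limma call. Named members lie far from the line of equal rank, and for C5ar1 and Tnfaip2 in MA9 the shifts of -88.5 and -77.6 points by signal were +17.5 and +2.28 points per width.

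MA9 and ME differed from each other at fewer members. Compared with ME, 878 members (27.8%) were called higher in MA9, where 23.3% of all 7016 regions were, and 826 (26.2%) were called lower, where 36.2% were. Higher calls were 51.5% of these, or 41.4% when the members were ranked among themselves and 41.1% over the regions with a single peak in every library. By all 3 rankings 148 members (4.69%) were higher in MA9, against 3.36% of all regions, and 88 (2.79%) were lower, against 2.72%. Only 423 of the 794 members called both by signal and by signal per width had the same direction in both, whereas 633 of the 694 called both by signal and by height did.

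Some members differed between the leukaemias by every ranking. Rnf213, a large ubiquitin ligase gene, stood at 84.9, 80.9 and 84.1 in MA9, against 6.04, 15.6 and 3.21 in ME, a shift of +75 points (SE 5.12, limma adjusted p = 4.8e-06), and Control stood at 25.2, 6.63 and 7.90. MA9 was higher than ME by all 3 rankings there, as at Coro1a (+47.6 points), at Nsd1, a histone methyltransferase gene (93.5, 94.0 and 94.2 in MA9, against 43.4, 46.8 and 35.5 in ME), and 19.4 kb from Vwf, the von Willebrand factor gene (78.8, 74.0 and 75 in MA9, against 19.7, 18.8 and 5.25 in ME). In the other direction, the region 247 kb from Sema3a stood at 1.64, 3.93 and 6.98 in MA9, against 45.5, 48.5 and 55.0 in ME, and the one 120 kb from Asap2 at 15.6, 15.1 and 12.5 in MA9, against 62.5, 49.5 and 58.2 in ME. Both were lower in MA9 by all 3 rankings. Tsc22d2, Orai2, the region 47.2 kb from Lcp1, the actin-bundling L-plastin gene, Arid1b and the region near BC035044 completed the 6 highest positive shifts with Rnf213, at +87.9, +81.2, +73.0, +67.3 and +67.2 points. Per width, Orai2 and BC035044 shifted the other way, by -13.2 and -13.4 points, of which the first passed, and the other 3 did not pass.

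A run of zinc finger genes on chromosome 2 was near the bottom of the MA9 ranks. Zfp931 stood at 0.0998, 0.200 and 0.285 in MA9, against 39.9, 65.5 and 49.1 in ME and 45.9, 44.1 and 44.4 in Control. Gm14410, Gm14326 and Zfp972 stood between 0.114 and 3.34 in MA9, between 54.7 and 75.4 in ME and between 45.9 and 61.0 in Control. The MA9 range lay apart from both others at each gene. MA9 shifted against ME by -71.7, -62.6, -59.0 and -51.3 points at Gm14410, Gm14326, Zfp972 and Zfp931 by signal and by -62.5, -58.3, -60.1 and -24.3 points by height, but per width the shifts were -10.4, -5.97, +5.51 and -1.25 points and did not pass. Against Control, Gm14326 and Zfp931 were lower in MA9 by all 3 rankings. These genes belong to a family of close copies, so the assignment of reads between them is uncertain. Over all 76 members nearest to a gene named Zfp, 18 were higher and 37 lower in MA9 than in Control, and 25 were higher and 38 lower in ME than in Control. Of all 7016 regions, 34.1% were higher and 38.7% lower in MA9, and 40.2% were higher and 34.9% lower in ME.

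The histone members ranked lower in both leukaemias by signal, but not by every measure. In MA9, 0 of 19 were called higher than Control, where 34.1% of all 7016 regions were, and 14 lower, where 38.7% were, with a median shift of -10.1 points, and per width 6 were higher and 1 lower with a median of +11.7 points. In ME, 0 were higher, where 40.2% of all regions were, and 16 lower, where 34.9% were, with a median of -20.2 points, and per width 1 was higher and 8 lower with a median of -14.9 points. By height 1 was higher and 16 lower in MA9, with a median of -24.5 points, against -0.804 points over all regions. In ME 0 were higher and 15 lower by height, with a median of -21.0 points, against -0.448 points. Ranked among the members alone, 2 were higher and 8 lower in ME, with a median of -0.666 points, against +0.962 points over all members. On that scale 1 was higher and 10 lower in MA9, with a median of -2.83 points, against -1.45 points. H2bc6 was lower than Control by all 3 rankings in MA9 (73.8, 76.2 and 69.3 in MA9, against 93.7, 94.0 and 93.9 in Control). In ME, H2bc6 and 5 others, H2bc14, H2ac10, H4f16, H2ac4 and H4c2, were lower by all 3. The widest gap by signal was at the member 12.6 kb from H4c8. That member stood at 63.9, 46.9 and 55.0 in MA9, 5.20, 9.09 and 7.37 in ME and 89.1, 90.2 and 90.4 in Control.

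Lists of genes were then read for members within 10 kb of a gene end. Of all protein-coding genes 18.5% had a member by this measure and 15.5% a region called in all 12. For the counts of calls in each list, 34.1% of all 7016 regions were higher and 38.7% lower in MA9 than in Control, with a median shift of -0.665 points. In ME 40.2% were higher and 34.9% lower, with a median shift of +1.17 points. The lists hold few members, and their counts are a description. Some of the calls counted were lost when 1 library was left out. Among them were rises in MA9 nearest to Brd3os and Crebbp, and rises in ME at Rybp and Bbc3. The fall in ME at Mdm2 and the rises at Smarcc1 in both leukaemias were others. Leukocyte signalling and actin genes had 7 members at 6 of 20 genes. None was called higher in either leukaemia, 5 were lower in MA9 and 6 in ME, and 2 and 3 were lower by all 3 rankings. By height 1 was higher in each leukaemia, with 4 lower in MA9 and 6 in ME. Vav1, a signalling gene of blood cells, stood at 8.30, 5.79 and 14.8 in MA9, 6.26, 9.22 and 3.58 in ME and 32.1, 33.8 and 33.0 in Control, and was lower by all 3 rankings in each leukaemia. The member near Cd52, a leukocyte surface antigen gene, shifted by -46.6 points in MA9 and -70.8 points in ME.

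**Figure D5:**
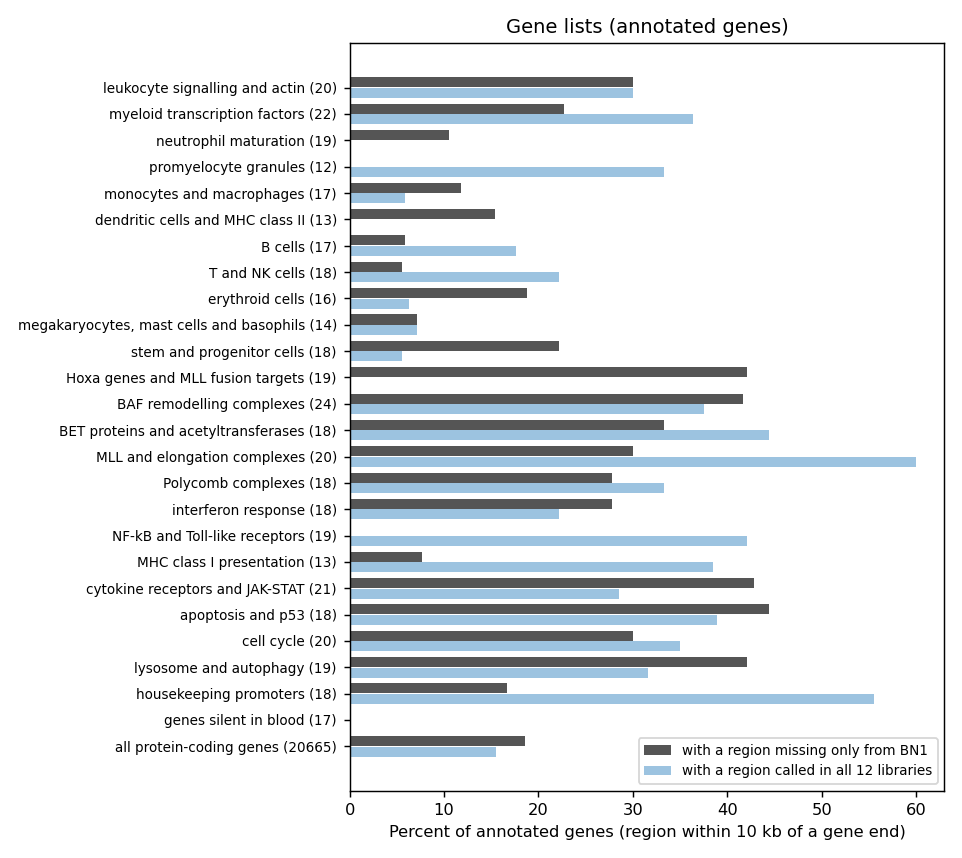
Share of the annotated genes of each list (horizontal axis, percent) with a member within 10 kb of a gene end, and with a region called in all 12 libraries, beside the same for all protein-coding genes. Hoxa genes and MLL fusion targets had members at 8 of 19 genes and regions called in all 12 at 0, while NF-kB and Toll-like receptor genes had members at 0 and such regions at 8 of 19.

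Genes of the remodelling and elongation complexes to which the fusion partners belong had members, but also regions called in all 12 libraries. Members were 35.7% of the 28 BAF gene regions called in the 9 libraries and 25% of the 28 at MLL and elongation genes, against 44.2% over all protein-coding genes, and 9 of 24 and 12 of 20 genes had a region called in all 12. BAF complex genes had 10 members at 10 of 24 genes, of which 5 were higher and 2 lower in MA9, and 3 higher and 5 lower in ME. The member over Brd9 itself stood at 57.5, 48.2 and 48.0 in MA9, 44.6, 43.1 and 10.1 in ME and 47.3, 58.5 and 62.1 in Control, a shift of -4.73 points in MA9 (limma adjusted p = 0.64) and -23.3 points in ME (limma adjusted p = 0.0319), with ME replicate 3 far below the others. The ME call at Brd9 was lost without ME replicate 3 (-12.1 points, limma adjusted p = 0.0503), without Control replicate 2 (-22.1 points, limma adjusted p = 0.0806) and without Control replicate 3 (-20.3 points, limma adjusted p = 0.0971). The member near Ss18 stood at 60.3, 67.6 and 62.5 in MA9, 59.6, 62.7 and 66.2 in ME and 1.24, 7.75 and 0.0998 in Control, and was higher by all 3 rankings in ME. The median BAF shift in MA9 was +16.8 points by signal, -0.789 by height and -13.1 per width. MLL and elongation complex genes had 7 members at 6 of 20 genes, and 4 were higher and 0 lower in MA9 (median shift +17.4 points), with 2 higher and 1 lower in ME (median +1.43 points). Mllt1, which encodes ENL, stood at 65.2, 66.5 and 64.5 in MA9, 51.3, 68.3 and 55.4 in ME and 34.5, 32.5 and 25.4 in Control, higher by all 3 rankings in MA9. Aff4, a scaffold of the super elongation complex, was the other of these genes higher by all 3 in MA9 (+25.3 points).

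Of 19 Hoxa genes and MLL fusion targets, 8 had a member, 5 regions in all, and 0 had a region called in all 12. In MA9 3 of the 5 were higher and 1 lower, and in ME 2 were higher and 2 lower. Pbx3, a HOX cofactor gene, was higher by all 3 rankings in both leukaemias, at 72.0, 73.9 and 70.3 in MA9, 61.0, 59.0 and 61.8 in ME and 47.6, 52.8 and 52.3 in Control. Id2, an inhibitor of E-protein factors, shifted by -53.7 points in MA9 and -43.3 in ME. Stem and progenitor genes had 4 members, 2 higher and 2 lower in MA9, with a median shift of +26.9 points by signal and -15.2 per width. Among them, the member at Hhex, a homeobox gene, shifted by +65.4 points in MA9 and +40.4 in ME, but by -19.2 and -30.7 per width. The one at Cdk6, a cell cycle kinase gene, shifted by +70.8 points in MA9 by signal, -15.0 by height and -11.2 per width.

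Genes of cell death and division had members in both directions. Apoptosis and p53 genes had 11 members, 6 higher and 2 lower in MA9 and 6 higher and 4 lower in ME. Bak1, a mitochondrial death effector gene, was higher by all 3 rankings in both leukaemias, at 27.4, 28.2 and 28.2 in MA9, 44.0, 51.2 and 46.0 in ME and 10.7, 11.7 and 13.4 in Control. Both members at Bid, another member of that family, were lower in ME by all 3 rankings (-37.1 and -19.3 points). Cell cycle genes had 8 members, 4 higher and 4 lower in each leukaemia, where 34.1% and 38.7% of all regions were higher and lower in MA9 and 40.2% and 34.9% in ME. Ccne2, the cyclin E2 gene, rose by all 3 rankings in MA9 (+54.2 points), and in ME Mcm2, a replication helicase gene, fell by all 3 (-35.2 points).

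Cytokine receptor and JAK-STAT genes had 10 members, 3 higher and 4 lower in MA9 and 4 higher and 4 lower in ME. Jak2, the kinase of the erythropoietin and thrombopoietin receptors, was higher in ME by all 3 rankings, at 61.0, 51.4 and 57.3 in ME, against 23.6, 23.0 and 17.4 in Control. Tyk2, a related kinase gene, was lower in MA9 by all 3, at 30, 29.8 and 33.8 in MA9, against 70.8, 66.6 and 67.7 in Control. Socs1, a feedback inhibitor of this pathway, shifted by +44.0 points in MA9 and +34.5 in ME. Lysosome and autophagy genes had 9 members, 1 higher and 5 lower in each leukaemia. BET protein and acetyltransferase genes had 9, 3 higher and 2 lower in MA9 and 3 higher and 3 lower in ME. Among them Kat5, encoding the acetyltransferase TIP60, was lower in ME by all 3 rankings, at 0.0143, 9.44 and 16.7 in ME, against 60.6, 63.6 and 64.2 in Control. Polycomb genes had 5, with 1 higher and 0 lower in MA9 and 2 higher and 0 lower in ME, including one near Bmi1, a self-renewal gene, higher by all 3 rankings in ME (+32.8 points).

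Lists for single blood lineages held 0 to 7 members each, at 0% to 22.7% of their genes, against 18.5% of all protein-coding genes. Myeloid transcription factor genes had 7, 4 higher and 1 lower in MA9 and 3 higher and 3 lower in ME, and a member 9.18 kb from Ikzf1, the Ikaros gene, was higher by all 3 rankings in MA9 (+18.6 points). Neutrophil maturation, dendritic cell, B cell, T and NK cell, monocyte, megakaryocyte and erythroid lists had 2, 2, 1, 1, 3, 1 and 5 members. Over all protein-coding genes, members were 44.2% of the regions called in the 9 libraries. By list they were 2 of 2 neutrophil, 2 of 3 dendritic cell, 5 of 8 erythroid and 4 of 7 stem and progenitor regions. The megakaryocyte list had 1 of 2, myeloid factors 7 of 19 and monocytes 3 of 9. B cells had 1 of 5, T and NK cells 1 of 4 and promyelocyte granules 0 of 7. The B cell member lay near Cr2 and stood at 37.1, 11 and 39.0 in MA9, 20.3, 16.6 and 30.1 in ME and 81.4, 82.9 and 81.5 in Control, lower in both leukaemias by all 3 rankings. Interferon response genes had 5, 1 higher and 3 lower in MA9 and 2 higher and 2 lower in ME, with Stat2, a mediator of interferon signalling, lower by all 3 in MA9 (-28.2 points). The median MA9 shift had opposite signs by signal and per width for the neutrophil, monocyte, T and NK cell, megakaryocyte, interferon response, BET and Polycomb lists, as for the BAF and stem cell lists above. The MHC class I list had 2 members and the housekeeping list 3, of which 2 were lower in each leukaemia. Promyelocyte granule genes, NF-kB and Toll-like receptor genes and genes silent in blood had 0 members, whereas 4 of 12 granule genes and 8 of 19 NF-kB and Toll-like receptor genes had a region called in all 12. The mix of cells in each library was not measured, and its part in these shifts was not tested.

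Few genes had more than 1 member beside them. Lyn, a SRC family kinase gene, Pecr, the glycolysis regulator gene Pfkfb3 and the amino acid transporter gene Slc38a2 had 4 each. Another 19 genes had 3 each, of which Bahcc1 came first in alphabetical order. At Slc38a2 the members moved apart: the one 43.4 kb away stood at 9.81, 8.17 and 9.25 in MA9, 41.7, 37.0 and 39.8 in ME and 3.06, 7.11 and 2.31 in Control, higher in ME by all 3 rankings. The one beside the gene end stood at 47.9, 56.1 and 44.0 in MA9, 36.8, 38.9 and 40.3 in ME and 22, 17.2 and 18.1 in Control, higher in MA9 by all 3. Of the members at Pecr, the one at 72254551 on chromosome 1 was higher by all 3 rankings in both leukaemias (+25.2 points in MA9 and +24.7 in ME) and the other 3 were not called by all 3 in either. At Lyn, the strongest member fell by signal in both leukaemias (-34.4 points in MA9 and -60.9 in ME) and its shifts did not pass per width.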

How the data were processed

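ATAC-seq peaks of 12 libraries in 4 groups of 3, grouped by the sample titles, were used as the authors deposited them, 1 list per library, with replicates not pooled. Genrich, deepTools 3.5.1, Picard 3.2.0 and Bowtie2 2.5.4 are named, in no stated order, by the submitters' processing notes, as is build GRCm38 (mm10). The deposited columns used were the peak signal, read from its values and its minimum just over 200 as the area under the −log10 p curve, the peak's −log10 p and −log10 q values, and the position. The deposited score was checked to be the signal over the width and was not used further. Read depth is unknown, and the lists hold only peaks above the caller's limit.

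Each region took the signal of its strongest peak in a library, as a percentile among the 7016 regions. Tests used limma 3.58.1 in R 4.3.3 (lmFit with 3 groups, eBayes with trend, Benjamini-Hochberg) and were tested on simulated data. Regions carry the name of the protein-coding gene with the nearest end in RefSeq (GRCm38.p6), whichever the strand. Named are the 15 strongest members, the strongest 2 within 10 kb of each list's genes, the 6 highest and 6 lowest called shifts per comparison and the 5 genes with most members. Ties in the number of members were taken in alphabetical order. Python 3.11.15 with pandas 2.3.3, numpy 2.4.6, scipy 1.17.1 and matplotlib 3.10.9 did the rest. Replicate numbers were shared between groups, and the ranks showed no pairing of same-numbered libraries. No 2 lists of a group shared an identical row. The members and the gene lists were chosen with earlier results of these data known. Exons, introns and summit sequences were not analysed here.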

Additional observations from a re-analysis of the deposited data

Results flagged for a closer look

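At 6 of the members picked by the naming rule the shift from Control had opposite signs in MA9 and ME, both called by limma, and the difference between the leukaemias was itself called. Over all members, 59 (1.87%) were called higher in MA9 and lower in ME than Control, against 1.60% of all 7016 regions, and 46 (1.46%) were called lower in MA9 and higher in ME, against 2.84%. At Arid1b, a BAF subunit gene, MA9 exceeded ME by 67.3 percentile points, with +56.6 in MA9 and -10.8 in ME against Control. Near Arid1a, at Pigv, the difference was 33.3 points (+23.4 in MA9 and -9.91 in ME), and near Gp1ba, at Eno3, it was 55.5 points (+19.7 in MA9 and -35.8 in ME). Members near zinc finger genes and near Pecr went the other way: Gm14410 at -71.7 points (-55.2 in MA9 and +16.4 in ME), Gm14326 at -62.6 points (-50.1 in MA9 and +12.5 in ME) and the Pecr region at 72283971 at -18.7 points (-5.58 in MA9 and +13.2 in ME). The MA9 calls at Eno3 and Pecr were weak. At Eno3 the limma adjusted p reached 0.169 without MA9 replicate 3 and 0.159 without MA9 replicate 1, the call was also lost without any 1 Control library, and without MA9 replicate 2 the shift was +30.8 points. At Pecr the call was lost without any 1 MA9 or Control library except Control replicate 1, with a limma adjusted p of up to 0.148 without Control replicate 3. Both shifts of a region use the same Control libraries, and at Arid1b, Gm14410 and Gm14326 the difference did not pass per base of peak width. At Pigv the MA9 rise was called by all 3 rankings, but the ME fall and the difference were not.

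Outside chromosomes 1 to 19, on sequences placed on no chromosome position, 69 regions were merged from the 12 lists and 1 of them was called in all 9 MA9, ME and Control libraries and in 0 BN1 libraries.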

How the results depend on the processing

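The number of members depended most on list length, with 62 in lists of equal length and 4875 when 2 of 3 libraries per group and at most 1 BN1 call sufficed. Leaving out 1 library gave 3154 to 3873 members, the highest without BN1 replicate 1. The gene-end share was 62.7% at 0.5 kb, 69.4% at 2 kb and 67.5% with peaks at −log10 q of 3 or more.

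Calls higher and lower in MA9 against Control were 525 and 682 with the weakest 25% of regions left out, which keeps 1603 members, with 787 lower per width and 278 and 419 by all 3 rankings. In ME against Control they were 502 and 752, 403 and 854, and 234 and 565. In MA9 against ME they were 564 and 490 by −log10 p and 562 and 403 with the weakest 25% left out, with 582 higher over the 2514 members with 1 peak in each library, 534 lower per width, and 148 and 88 by all 3 rankings. The single-peak and all-ranking rules were chosen after seeing the data. Without 1 library of the 2 groups compared, calls numbered 802 to 857 and 1206 to 1237 in MA9 against Control, 822 to 889 and 1235 to 1309 in ME against Control, and 779 to 866 and 715 to 814 in MA9 against ME. Without 1 library of the third group they numbered 912 to 919 and 1319 to 1343, 898 to 904 and 1306 to 1321, and 830 to 844 and 765 to 786.

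Among the 6 highest and 6 lowest called shifts of each comparison, 10 changed sign per width: in MA9 against Control C5ar1 17.5, Tnfaip2 2.28, Wasf2 33.2, Atp6v0a1 24.8, Chst3 54.4 and Bcl3 8.63 points, in ME against Control Orai2 2.92, and in MA9 against ME Orai2 -13.2, BC035044 -13.4 and Zfp972 5.51. Another 12 of them kept their sign and did not pass, the changes at Hhex and Cdk6 are given above, and the cause was not tested. Deviations of the ranks from the group means correlated at -0.018 to 0.061 between same-numbered libraries (9 pairs). No pairing was seen in the ranks, which cannot show whether libraries were prepared together. A replicate block gave 881 and 1263, 895 and 1310, and 867 and 791 calls. With few peaks in BN1, the limit of its lists bounds what absence there can show.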

Other observations

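The members also covered 10 annotated microRNA hairpins of RefSeq build GRCm38.p6. The one of highest mean percentile over the 9 libraries was Mir8101, in the region nearest to the deacetylase gene Hdac5 (43.8), followed by Mir5131 (37.6) and Mir762 in the region nearest to the BAF subunit gene Bcl7c (35.9). Mir1932 lay in the Rnf213 region described above and Mir8105 in that of the BAF subunit gene Smarcc2 (10.1). Peak lists do not show whether these hairpins were transcribed.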
